A study of Homo sapiens with 24 samples.

Results

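The genes described here encode the mitochondrial respiratory chain and the ATP synthase. They were taken from the FPKM table by symbol, as every row whose name starts with MT-ND, MT-CO, MT-ATP, MT-CYB, NDUFA, NDUFB, NDUFC, NDUFS, NDUFV, UQCR, COX4 to COX8 or ATP5, or that is SDHA, SDHB, SDHC or SDHD. Of 14114 rows, 103 matched, and the pseudogenes NDUFV2P1 and UQCRFS1P1 were dropped, which left 101. MT-ATP6 and MT-ATP8 also end in a P and a digit but are protein-coding and were kept. The 101 are 13 protein genes of the mitochondrial DNA, 86 protein genes of the nucleus and 2 RNAs named as antisense to nuclear members, NDUFA6-AS1 and NDUFV2-AS1.

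The RNA came from established human lines of triple-negative breast cancer, MDA-MB-157 cells and MDA-MB-468 along with MDA-MB-231. Each line was treated for 3 h with 100 nM BETd-246, 1000 nM BETi-211, 1000 nM thalidomide or the solvent DMSO, with 2 replicates a group, which makes 12 groups and 24 libraries over the 3 lines. BETi-211 is an inhibitor of the BET bromodomain proteins and BETd-246 a degrader of them. They were given at different doses. Thalidomide, which binds the ubiquitin ligase component cereblon, and DMSO were both controls, so each line had 4 control libraries. The labels give no engineered allele for any line, and they call the replicates independent biological ones.

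The respiratory chain passes electrons from NADH and succinate to oxygen through complexes I to IV of the inner mitochondrial membrane and pumps protons, and complex V, the ATP synthase, uses the proton gradient to make ATP. Complexes I, III, IV and V combine subunits made inside the mitochondrion from mitochondrial DNA with subunits encoded in the nucleus, whereas complex II is wholly nuclear. The mitochondrial genes are transcribed by their own polymerase, POLRMT, from promoters that serve whole strands, and the long transcripts are then cut into single messages. The nuclear genes are transcribed one by one by RNA polymerase II, many of them under NRF1, GABP and related factors.

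Values are FPKM (fragments per kilobase, scaled to library size), so each is a share of its library, and absolute amounts of RNA were not measured. The libraries held an estimated 42500000 to 63600000 fragments, judged from the steps of the low values. In bulk samples fewer cells of a type and less RNA per cell cannot be told apart. The epithelial markers summed to 3790 to 4610 FPKM in MDA-MB-468 and to 422 to 537 in the other lines, and the mesenchymal markers to 14.9 to 17.2 FPKM in MDA-MB-468, against 895 to 2560 in the others. Stromal markers summed to 436 to 535 FPKM and immune markers to 54.0 to 71.8 in MDA-MB-157, and both to under 2 FPKM in the other lines. These sums rest on 4 of 6 listed stromal markers and 2 of 4 listed immune ones. COL3A1 alone averaged 354 FPKM in the MDA-MB-157 controls. ERBB2 was the sole receptor of 3 listed with a row in the table and lay between 7.17 and 19.5 FPKM. Changes are log2 differences of FPKM + 1 between treated libraries and the mean of the DMSO and thalidomide groups of the same line, from limma across all 14114 genes. A gene is called higher or lower where its Benjamini-Hochberg adjusted p is under 0.05.

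Of the 13 mitochondrially encoded genes, which specify core subunits of complexes I, III, IV and V, 9 were called higher after BETd-246 in MDA-MB-157 cells, 6 in MDA-MB-231 cells and 11 in MDA-MB-468, and none was called lower. Among all genes tested, 19%, 14.8% and 20.1% were called higher in these lines. The median changes of the 13 were 0.50, 0.36 and 0.48 (log2), beside all-gene medians of -0.03, -0.05 and -0.03. Every one of the 13 lay above zero in each line, between 0.36 and 0.57 in MDA-MB-157 cells, 0.19 and 0.61 in MDA-MB-231 cells and 0.38 and 0.57 in MDA-MB-468. MT-ATP8, MT-CO1, MT-CO3, MT-ND3 and MT-ND4L were called in all 3 lines. In MDA-MB-231 these calls were unequally stable over the 12 alternative analyses that kept all libraries. The highest adjusted p in limma was 0.00454 for MT-ND3, 0.218 for MT-ATP8, 0.239 for MT-CO3, 0.5 for MT-CO1 and 0.7 for MT-ND4L. Single libraries moved these counts: 1 gene was called in MDA-MB-157 without BETd-246 replicate 1, 5 and 3 in MDA-MB-468 without BETd-246 replicates 1 and 2, and in MDA-MB-231 2 without BETd-246 replicate 2, 3 without DMSO replicate 1 or thalidomide replicate 2, and 13 without thalidomide replicate 1.

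MT-ND3, a small core subunit of the membrane arm of complex I (ENSG00000198840.2, chromosome M, 10059 to 10404, plus strand, GRCh38, GENCODE 29), had the lowest adjusted p of the 13 after BETd-246 in each line. In MDA-MB-231 it measured 1483 and 1542 FPKM after BETd-246 and 1145 and 1291 after BETi-211, against 871 and 948 after thalidomide and 1069 and 1096 in DMSO. In MDA-MB-468 it measured 146 and 137 FPKM after BETd-246 and 111 and 103 after BETi-211, against 88.5 and 89.7 after thalidomide and 104 and 101 in DMSO. In MDA-MB-157 it measured 171 and 149 FPKM after BETd-246 and 140 and 126 after BETi-211, against 128 and 118 after thalidomide and 90.0 and 110 in DMSO. The BETd-246 libraries were the highest of their line in all 3 lines and overlapped with no control, whereas the BETi-211 libraries overlapped with the thalidomide ones in MDA-MB-157 and with the DMSO ones in MDA-MB-468. After BETd-246 the gene rose by 0.53, 0.61 and 0.57 (log2, SE 0.079) in MDA-MB-157 cells, MDA-MB-231 cells and MDA-MB-468, with adjusted p of 3.77e-05, 7.6e-06 and 1.45e-05 in limma. After BETi-211 the changes were 0.26 (adjusted p 0.0133), 0.29 (0.00517) and 0.16 (0.0958).

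The complex IV core was read from MT-CO1, MT-CO2 and MT-CO3, which encode the catalytic part of cytochrome c oxidase. MT-CO1 in MDA-MB-468 measured 653 and 689 FPKM after BETd-246 and 631 and 604 after BETi-211, against 480 and 510 after thalidomide and 463 and 538 in DMSO. All 4 treated libraries lay above all 4 controls. In MDA-MB-157 MT-CO1 measured 761 and 555 FPKM after BETd-246 and 797 and 656 after BETi-211, against 602 and 553 after thalidomide and 440 and 447 in DMSO. Here the controls themselves separated, the thalidomide libraries lying between DMSO and the treated ones, and the lower BETd-246 library fell among them. MT-CO3 was called after both compounds in every line, with changes of 0.36, 0.40 and 0.42 after BETd-246 (adjusted p 0.00685, 0.00414 and 0.00231) and 0.44, 0.25 and 0.28 after BETi-211 (0.00179, 0.0467 and 0.0291). Over the 12 alternative analyses that kept all libraries, its adjusted p in limma reached 0.231, 0.239 and 0.108 after BETd-246. After BETi-211 it reached 0.0973, 0.637 and 0.495.

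MT-ND6, the one protein gene of the light strand, was called in no line after either compound. It measured 48.2 and 41.9 FPKM after BETd-246 and 49.5 and 42.4 after BETi-211 in MDA-MB-157, against 34.1 and 35.8 after thalidomide and 28.8 and 30.5 in DMSO. In MDA-MB-231 it measured 122 and 137 FPKM after BETd-246 and 116 and 118 after BETi-211, against 188 and 71.8 after thalidomide and 109 in each DMSO library. The groups did not overlap in MDA-MB-157 cells, and in MDA-MB-231 the thalidomide pair spanned all other values. The library kit does not record strand, so reads of MT-ND6 cannot be told apart from read-through of the opposite strand. MT-CYB, the cytochrome b of complex III, rose by 0.50 (adjusted p 0.0106) in MDA-MB-157 cells and 0.53 (0.00665) in MDA-MB-468 after BETd-246 and had a change of 0.29 (0.125) in MDA-MB-231. MT-ATP6, the proton channel subunit of complex V, rose by 0.57 (0.00857) and 0.52 (0.0137) in the same pair of lines and had a change of 0.38 (0.0627) in MDA-MB-231.

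BETi-211 gave 9 mitochondrial genes called higher in MDA-MB-157 cells, 2 in MDA-MB-231 cells and 2 in MDA-MB-468, with none lower, where 14.9%, 18.7% and 21.3% of all genes were called higher. The median changes were 0.51, 0.23 and 0.26, and MT-CO3 was the sole gene called in all 3 lines. Without BETi-211 replicate 1 none was called in MDA-MB-157, without any 1 of the 2 BETi-211 libraries, DMSO replicate 1 or thalidomide replicate 1 none in MDA-MB-468 cells, and without thalidomide replicate 1 12 in MDA-MB-231, where leaving out DMSO replicate 1, thalidomide replicate 2, or BETi-211 replicate 1 or 2 gave 1, 1, 1 and 0. All treated libraries lay above all controls for 11, 3 and 11 of the 13 genes after BETi-211, where 22.1%, 22.4% and 27.2% of all genes did so. After BETd-246 this held for 7, 7 and 13 genes, with 25.4%, 19.9% and 25% of all genes. The number called depended on which control was used. Against DMSO alone fewer were called after each compound in MDA-MB-231 cells and MDA-MB-468 cells, with counts in the processing section below. In MDA-MB-157, 11 genes were called after BETd-246 and 12 after BETi-211 against DMSO alone, and 1 and 0 against thalidomide alone. The medians there were 0.68 and 0.70 against DMSO and 0.28 and 0.30 against thalidomide. In that line thalidomide libraries lay higher than DMSO for all 13 genes, by 0.23 to 0.60 with a lowest adjusted p of 0.15 in limma, so none was called (7 had an unadjusted p under 0.05).

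**Figure D1:**
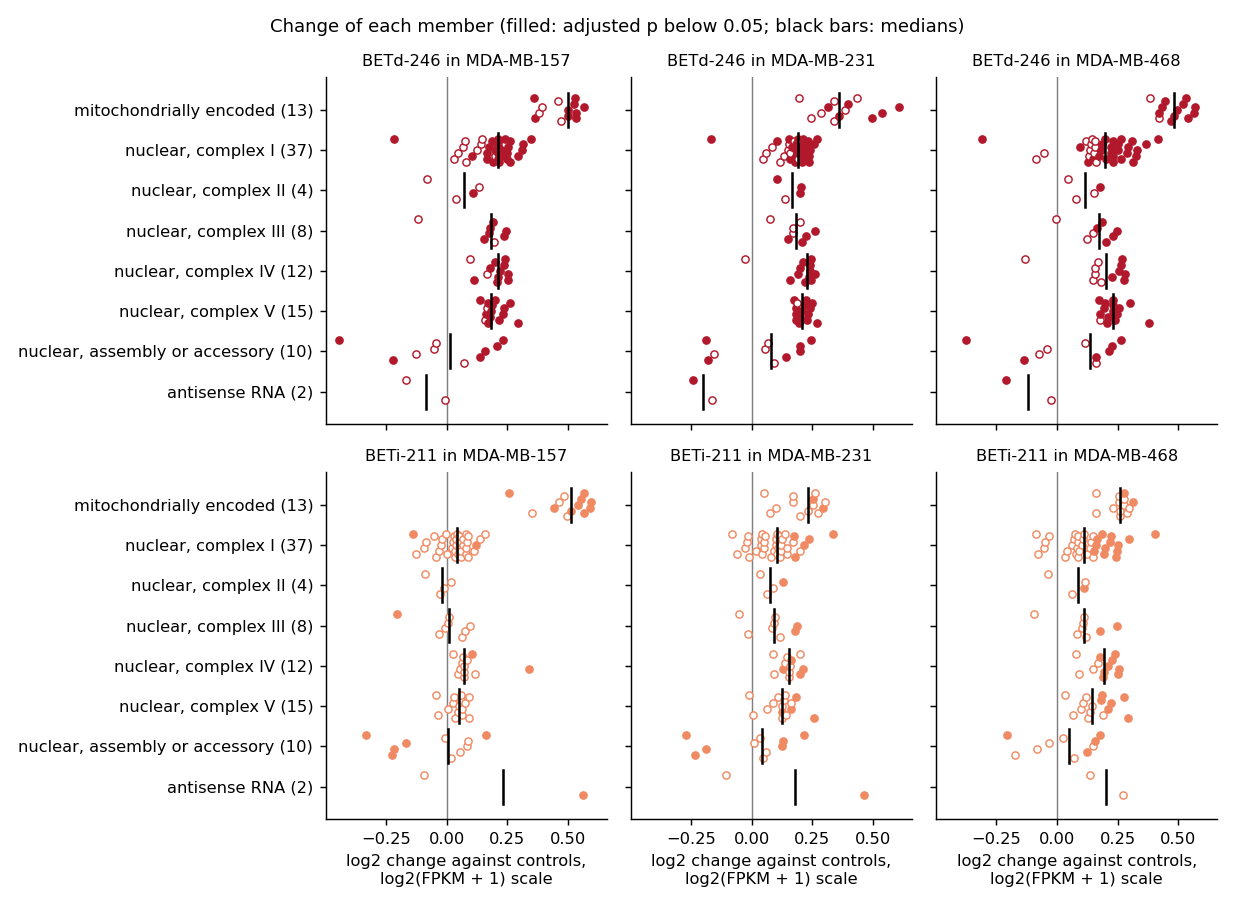
Log2 change of each respiratory chain gene (FPKM + 1) after BETd-246 (top row) and BETi-211 (bottom row) in the 3 lines, against the mean of the thalidomide and DMSO groups. Each point is 1 gene, filled where its adjusted p is under 0.05, and black bars are medians by class. The 13 mitochondrial genes lie above zero in every panel, and the nuclear subunits sit near 0.2 after BETd-246.

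After BETd-246 calls among the nuclear genes were mostly upward in each line, and their median changes were smaller than those of the mitochondrial genes. In all, 60 of 86 were called higher and 3 lower in MDA-MB-157 cells, 61 and 3 in MDA-MB-231 cells, and 55 and 3 in MDA-MB-468, where 32.4%, 33.3% and 33.7% of all genes were called lower and 19%, 14.8% and 20.1% higher. Their medians were 0.19, 0.20 and 0.19. Of the 86, 42 were called higher in every line and 71 in at least 1. All treated libraries lay above all controls for 69, 61 and 71 of the 86, beside 25.4%, 19.9% and 25% of all genes. The count called higher was 11 in MDA-MB-157 without BETd-246 replicate 2, 24 in MDA-MB-468 without BETd-246 replicate 1, and in MDA-MB-231 11 and 35 without BETd-246 replicates 1 and 2 and 39 without DMSO replicate 1. The count called lower in MDA-MB-231 was 1 without BETd-246 replicate 2. These members are mostly abundant. Among the 4457 genes that average at least 20 FPKM in the controls, a limit set after the values were seen, 32.8%, 31.3% and 37.9% were called higher, and among the 77 nuclear members there 77.9%, 77.9% and 71.4%.

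The nuclear count depends on how libraries are scaled, since all changes are shares. With quantile normalization 37, 48 and 39 of the 86 were called higher and 3, 1 and 1 lower, where 37.9%, 34.1% and 38.4% of all genes were called higher. The nuclear median then exceeded the all-gene median by 0.03, 0.07 and 0.03, against 0.22, 0.24 and 0.22 as deposited. The mitochondrial median still exceeded it by 0.33, 0.11 and 0.32, against 0.53, 0.41 and 0.51 as deposited. After BETi-211 in MDA-MB-231 quantile normalization left the mitochondrial median, 0.05, below the nuclear one, 0.09. With each column scaled to 1 total, 18, 11 and 30 were called higher and 6, 4 and 5 lower. With median-of-ratios scaling, which moved the all-gene medians to 0.09, 0.08 and 0.09, 78, 80 and 77 were called higher and 1, 0 and 2 lower. Shares of all genes called with column totals and with median-of-ratios scaling are not given here, so these counts lack a background.

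Complex I takes electrons from NADH and is the largest complex, with 37 nuclear subunits here. With the lines averaged, where 27.9% of all genes were called higher and 42.2% lower after BETd-246, 34 of the 37 were called higher and 1 lower (median 0.20). The same all-gene shares apply to the averaged BETd-246 counts of the other complexes below. NDUFS7, which carries an iron-sulfur cluster close to the quinone site, measured 37.3 and 35.5 FPKM after BETd-246 and 31.7 and 32.5 after BETi-211 in MDA-MB-468, against 29.7 and 28.9 after thalidomide and 27.3 and 22.5 in DMSO. The BETd-246 libraries stood above all others of the line. NDUFS7 rose by 0.42 (adjusted p 0.00115) there and by 0.35 (0.00481) in MDA-MB-157 cells, and had a change of 0.16 (0.171) in MDA-MB-231. NDUFV1, the subunit that binds NADH and flavin, rose by 0.31, 0.20 and 0.29, and NDUFS8, a further iron-sulfur subunit, by 0.29, 0.23 and 0.37.

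NDUFV3, an accessory subunit of the NADH-binding module (ENSG00000160194.17, chromosome 21, 42879644 to 42913304, plus strand), went the other way from nearly all other subunits. It measured 18.7 and 17.9 FPKM after BETd-246 and 24.9 and 24.3 after BETi-211 in MDA-MB-468, against 23.4 in each thalidomide library and 22.3 and 22.5 in DMSO. In MDA-MB-157 it measured 32.4 and 30.8 FPKM after BETd-246 and 39.8 and 40.6 after BETi-211, against 38.3 and 37.8 after thalidomide and 37.6 and 34.0 in DMSO. In MDA-MB-231 it measured 24.6 and 24.1 FPKM after BETd-246 and 31.2 in each BETi-211 library, against 25.7 and 29.2 after thalidomide and 27.2 and 27.9 in DMSO. In each line the BETd-246 libraries were below all others and the BETi-211 libraries above all others. NDUFV3 fell by 0.22, 0.17 and 0.31 after BETd-246 (SE 0.045 in each line; adjusted p 0.000895, 0.00602 and 2.78e-05). After BETi-211 it rose by 0.12 (0.039) and 0.18 (0.00392) in MDA-MB-157 cells and MDA-MB-231 cells and had a change of 0.10 (0.0722) in MDA-MB-468. It was the single member called lower after BETd-246 and higher after BETi-211 in the same line. Median-of-ratios scaling brought its BETd-246 change in MDA-MB-231 to 0.02.

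Of the 7 complex I assembly factors, which help build the complex without staying in it, 2 were called higher and 3 lower with the lines averaged after BETd-246 (median -0.02), shares close to the 27.9% and 42.2% of all genes. NDUFAF4 (ENSG00000123545.5, chromosome 6, 96889313 to 96897881, minus strand) measured 6.56 and 6.76 FPKM after BETd-246 and 7.20 and 7.35 after BETi-211 in MDA-MB-157, against 9.32 and 8.86 after thalidomide and 9.72 and 9.84 in DMSO. In MDA-MB-468 it measured 10.1 and 9.01 FPKM after BETd-246 and 11.02 and 10.7 after BETi-211, against 12.6 and 11.8 after thalidomide and 12.99 and 13.3 in DMSO. In MDA-MB-231 it measured 8.18 and 8.26 FPKM after BETd-246 and 7.70 and 7.74 after BETi-211, against 7.99 and 10.2 after thalidomide and 9.35 and 9.59 in DMSO. Treated and control libraries did not overlap in MDA-MB-157 cells and MDA-MB-468 cells, and in MDA-MB-231 1 thalidomide library fell among the treated ones. NDUFAF4 fell by 0.33, 0.23 and 0.21 after BETi-211 (adjusted p 0.000428, 0.00613 and 0.0127), and was the sole nuclear gene called lower in every line. After BETd-246 it fell by 0.44 (2.6e-05) in MDA-MB-157 cells and 0.38 (0.000121) in MDA-MB-468 cells, with a change of -0.15 (0.0592) in MDA-MB-231.

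NDUFAF7, a methyltransferase that acts on a complex I subunit, fell by 0.22, 0.19 and 0.13 after BETd-246 (adjusted p 0.000146, 0.000632 and 0.00695), though quantile normalization turned the change to 0.09 for MDA-MB-231 cells and 0.05 for MDA-MB-468 cells, and median-of-ratios scaling to 0.04 for MDA-MB-468 cells. NDUFAF5, a further assembly factor that acts during complex I assembly, fell by 0.22 and 0.27 after BETi-211 in MDA-MB-157 cells and MDA-MB-231. NDUFAF2 and NDUFAF3, which take part in the same assembly, rose by 0.21, 0.24 and 0.21 and by 0.23, 0.20 and 0.27 after BETd-246.

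**Figure D2:**
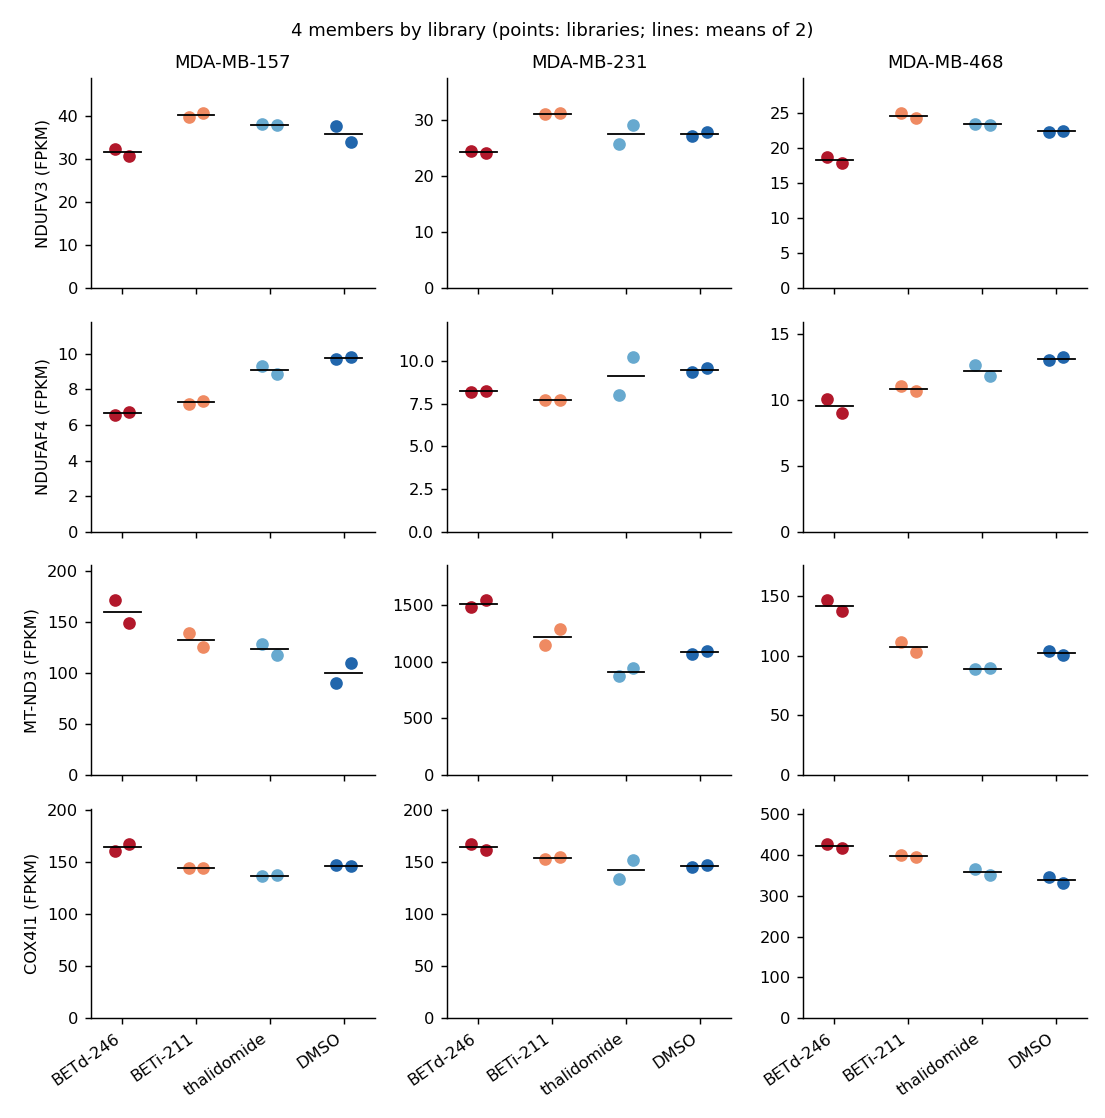
FPKM of NDUFV3, NDUFAF4, MT-ND3 and COX4I1 in each library, by line, with BETd-246 and BETi-211 left of thalidomide and DMSO. Each point is 1 library of 2 a group. NDUFV3 is lowest after BETd-246 and highest after BETi-211, NDUFAF4 is lower after both in MDA-MB-157 cells and MDA-MB-468 cells, while in MDA-MB-231 1 thalidomide library at 7.99 FPKM lies below the BETd-246 ones, and MT-ND3 is highest after BETd-246.

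Complex II takes electrons from succinate and has 4 subunits. With the lines averaged 2 of them were called higher after BETd-246 (median 0.10), and these were SDHA, the flavoprotein, at 0.10 and SDHB, the iron-sulfur subunit, at 0.17. The membrane anchors SDHC and SDHD had averaged changes of 0.07 (adjusted p 0.465) and 0.10 (0.0689). Of the 8 nuclear complex III subunits 7 were called higher (median 0.19). UQCRH, the hinge protein next to cytochrome c1, rose by 0.23, 0.26 and 0.19 in the separate lines. UQCRFS1, the Rieske iron-sulfur protein, had changes of -0.12, 0.07 and -0.01 after BETd-246, none called, and fell by 0.20 (0.00493) after BETi-211 in MDA-MB-157.

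Complex IV, which reduces oxygen and to which NDUFA4 is now assigned, had 11 of 12 nuclear subunits called higher after BETd-246 with the lines averaged (median 0.22). COX4I1, the largest nuclear subunit (ENSG00000131143.8, chromosome 16, 85798633 to 85807044, plus strand), measured 427 and 416 FPKM after BETd-246 and 399 and 396 after BETi-211 in MDA-MB-468, against 365 and 350 after thalidomide and 347 and 331 in DMSO. In MDA-MB-157 it measured 161 and 167 FPKM after BETd-246 and 144 in each BETi-211 library, against 136 and 138 after thalidomide and 147 and 146 in DMSO. The BETd-246 libraries stood above the rest in both lines, and the BETi-211 ones stood above the controls in MDA-MB-468 alone of these. COX4I1 rose by 0.21, 0.19 and 0.28 after BETd-246 (adjusted p 0.000456, 0.00127 and 3.31e-05), and after BETi-211 had changes of 0.02, 0.09 and 0.19, the last of which was called. COX5A, which binds the matrix side of the enzyme, was the sole nuclear gene called higher in every line after BETi-211, by 0.10, 0.16 and 0.24. Over the 12 alternative analyses that kept all libraries its adjusted p in limma reached 0.267, 0.0642 and 0.00407.

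The complex IV member that departed was COX6B2, the isoform of COX6B1 known for its expression in testis. In MDA-MB-157 it measured 4.54 and 4.41 FPKM after BETd-246 and 5.65 and 5.33 after BETi-211, against 4.29 and 4.45 after thalidomide and 3.97 and 3.83 in DMSO. It rose by 0.34 after BETi-211 in that line (adjusted p 0.000787) and had a change of 0.09 (0.279) after BETd-246. The common form, COX6B1, was called in every line after BETd-246 at 0.24, 0.20 and 0.27. Of a list of 15 isoform genes 8 had a row in the table. With the lines averaged 7 were called higher and none lower after BETd-246, against 8 and none after BETi-211. The all-gene shares are those given with complex I for BETd-246 and with the averaged nuclear counts below for BETi-211. The list overlaps the members.

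All 15 nuclear complex V subunits were called higher after BETd-246 with the lines averaged (median 0.21, range 0.16 to 0.30). ATP5D, the delta subunit of the central stalk, rose by 0.29, 0.23 and 0.38 in the separate lines (adjusted p 0.0116, 0.0432 and 0.00176), and ATP5B, the catalytic beta subunit, by 0.18, 0.25 and 0.26. Over the 86 nuclear genes the averaged BETd-246 change had a Spearman rho of 0.41 with the control level and of -0.24 with exon length, beside 0.24 and -0.09 over all genes. These describe genes that share libraries and carry no test.

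BETi-211 moved the nuclear genes less evenly. It gave 4 called higher and 6 lower in MDA-MB-157 cells, 19 and 3 in MDA-MB-231 cells and 33 and 1 in MDA-MB-468. The medians were 0.05, 0.11 and 0.12, and 30.9%, 31.4% and 32.5% of all genes were called lower. The all-gene shares called higher are those given for BETi-211 with the mitochondrial genes. The nuclear count was under that share in MDA-MB-157, close to it in MDA-MB-231 and above it in MDA-MB-468. All treated libraries lay above all controls for 18, 24 and 57 of the 86. The all-gene shares for this are those given for BETi-211 with the mitochondrial genes. The counts in MDA-MB-157 and MDA-MB-231 lay near those shares. Leaving out 1 library gave 1 to 6 called higher in MDA-MB-157, 3 (without BETi-211 replicate 2) to 57 (without thalidomide replicate 2) in MDA-MB-231 cells and 11 (without BETi-211 replicate 2) to 33 in MDA-MB-468. Among genes of at least 20 FPKM the share of nuclear members called higher was 2.60%, 23.4% and 42.9%, beside 13.6%, 21.2% and 27.2% of all such genes. The counts again moved with scaling. Upper-quartile scaling gave 40, 57 and 65 higher with 2, 3 and 0 lower. Column totals gave 1, 5 and 12 higher with 10, 7 and 8 lower. The all-gene shares under these scalings are not given here. With the lines averaged 52 of 86 were called higher and 6 lower, where 26.6% and 40.6% of all genes were. By complex this was 19 of 37 subunits of complex I, 1 of 4 of complex II, 3 of 8 of complex III, 12 of 12 of complex IV and 12 of 15 of complex V.

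NDUFA2, an accessory subunit beside the NADH-binding module with a thioredoxin-like fold, had the largest BETi-211 changes of the nuclear subunits in MDA-MB-231 cells and MDA-MB-468. In MDA-MB-468 it measured 87.8 and 90.0 FPKM after BETi-211, against 72.7 and 65.8 after thalidomide and 66.5 and 63.0 in DMSO, so that the groups did not overlap. It rose by 0.34 (adjusted p 0.00108) and 0.40 (0.000191) in these lines and had a change of 0.16 (0.0881) in MDA-MB-157.

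The direct comparison of the compounds, at 100 nM BETd-246 and 1000 nM BETi-211, covers compound and dose together. Nuclear members called were 19 higher and 3 lower after BETd-246 than after BETi-211 in MDA-MB-157 cells, 6 and 1 in MDA-MB-231 cells and 5 and 3 in MDA-MB-468, where 24.2%, 17.8% and 20.1% of all genes were called higher and 22.3%, 23.9% and 23.2% lower. MT-ND3 was the 1 mitochondrial gene called in each line, at 0.27 (adjusted p 0.0242), 0.31 (0.0109) and 0.40 (0.00182). Leaving out 1 library gave 6 to 11, 3 to 9 and 3 to 6 members called outside the antisense RNAs, against 23, 8 and 9 with all libraries (46.5%, 41.7% and 43.3% of all genes). Each of the 4 libraries of MDA-MB-157 moved its count by over 1.5 times, and so did BETi-211 replicate 1 and both BETd-246 replicates in MDA-MB-231 and both BETi-211 replicates and BETd-246 replicate 2 in MDA-MB-468. MT-ND3 was called in 9, 11 and 14 of 14 alternative analyses. NDUFV3 was lower after BETd-246 than after BETi-211 by 0.34, 0.35 and 0.41 on the log2 scale (fitted differences -0.34, -0.35 and -0.41, adjusted p 7.15e-05, 5.23e-05 and 8.49e-06) and was called in all 14 alternatives of each line. NDUFS1, the largest core subunit of complex I, named after its values were seen, differed in the other direction in every line and was higher after BETd-246 than after BETi-211 by 0.21, 0.17 and 0.15. With the lines averaged NDUFS1 changed by 0.09 after BETd-246 and by -0.08 after BETi-211.

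The effects of each compound were also compared between lines, by an interaction term. For BETd-246 ATP5SL, an accessory gene now named DMAC2, differed between MDA-MB-468 cells and MDA-MB-231 by 0.16 (adjusted p 0.0245), and no other member did in any pair of lines, where 11.2% (MDA-MB-157 cells against MDA-MB-231), 13.3% (MDA-MB-468 cells against MDA-MB-231) and 13.1% (MDA-MB-157 cells against MDA-MB-468) of all genes were called. For BETi-211, NDUFB10 of complex I, ATP5B and ATP5SL differed between MDA-MB-157 cells and MDA-MB-468, by -0.21 (0.0212), -0.22 (0.0246) and -0.13 (0.049), and no member did in the other pairs, where 16.5%, 21.9% and 21.6% of all genes were called for the 3 pairs in the same order. At an unadjusted p under 0.05 the numbers for BETd-246 were 2 in MDA-MB-157 cells against MDA-MB-231 cells, 4 in MDA-MB-468 cells against MDA-MB-231 cells and 2 in MDA-MB-157 cells against MDA-MB-468. Shares of all genes at that limit, and in the leave-out fit that follows, are not given here. Without thalidomide replicate 2 of MDA-MB-231 the calls for BETd-246 were 6 in MDA-MB-157 cells and 10 in MDA-MB-468 cells, each against MDA-MB-231, and those for BETi-211 45 and 6.

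The summed mitochondrial signal was 2291 to 2377 FPKM after BETd-246 and 1952 to 2147 after BETi-211 in MDA-MB-468, against 1556 to 1740 after thalidomide and 1654 to 1829 in DMSO. In MDA-MB-157 it was 2498 to 3222 FPKM after BETd-246 and 2670 to 3245 after BETi-211, against 2306 to 2533 after thalidomide and 1804 to 1849 in DMSO. In MDA-MB-231 it was 8827 to 9221 FPKM after BETd-246 and 7598 to 8366 after BETi-211, against 5307 to 7817 after thalidomide and 7069 to 7283 in DMSO. The treated sums cleared the controls in MDA-MB-468 after both compounds, in MDA-MB-157 after BETi-211 and in MDA-MB-231 after BETd-246. The ratio of the mitochondrial to the nuclear sum was 1.18, 1.15 and 1.19 times the control after BETd-246 and 1.36, 1.08 and 1.09 times after BETi-211. The SD of this log2 ratio among the 4 controls was 0.28, 0.35 and 0.14. The BETd-246 libraries of MDA-MB-468, at log2 ratios of -2.44 and -2.33 against controls between -2.80 and -2.48, were the sole treated pair that did not overlap with its controls.

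**Figure D3:**
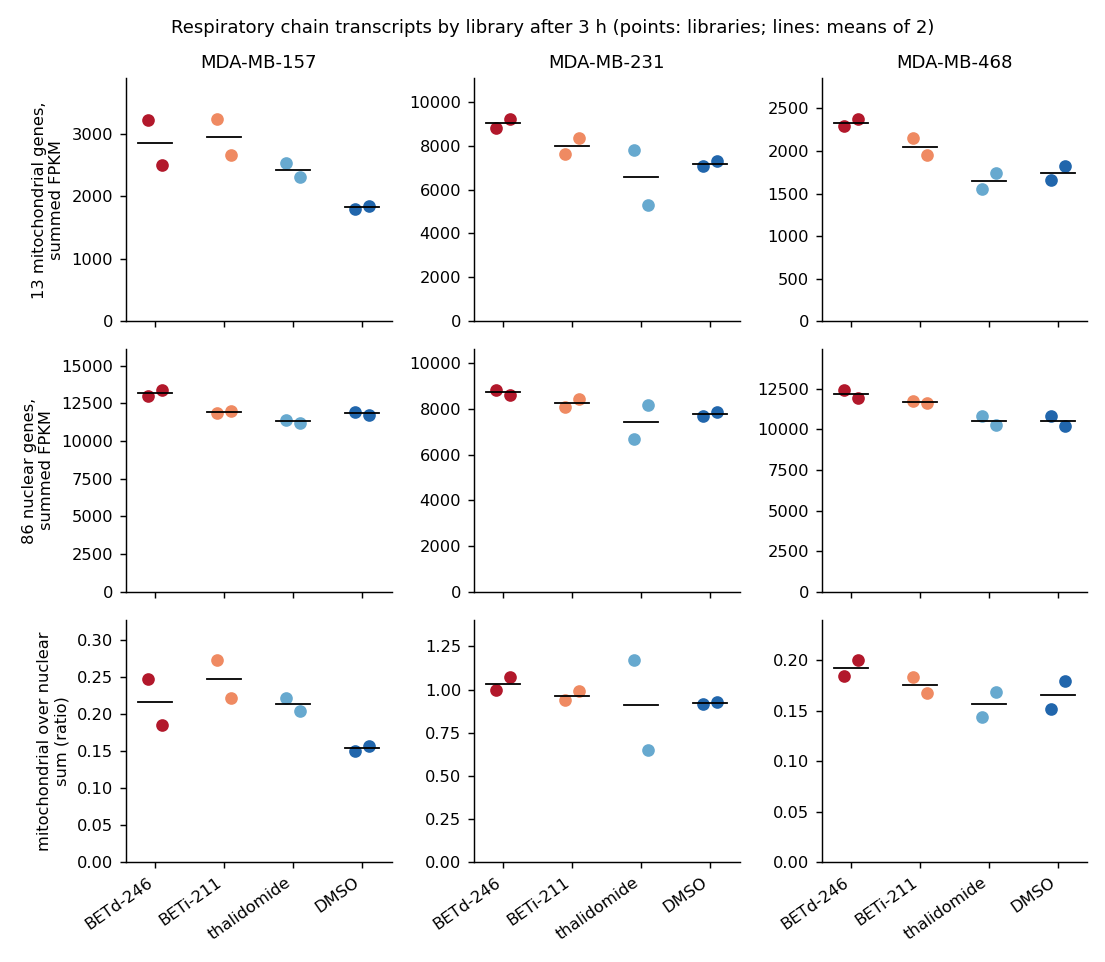
Summed FPKM of the 13 mitochondrial genes, summed FPKM of the 86 nuclear genes, and their ratio, in each library, by line, with BETd-246 and BETi-211 left of thalidomide and DMSO. Each point is 1 library. The 2 thalidomide libraries of MDA-MB-231 lie far apart, at mitochondrial sums of 7817 and 5307 FPKM.

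Thalidomide and DMSO differed for no member at an adjusted p under 0.05 in limma in any line (12, 6 and 12 members had an unadjusted p under 0.05), where 0.184%, 0% and 0% of all genes were called. Without DMSO replicate 1 of MDA-MB-157 4 members were called, and without thalidomide replicate 2 of MDA-MB-231 49. Within MDA-MB-231 thalidomide replicates 1 and 2 had mitochondrial to nuclear ratios of 1.17 and 0.651, further apart than any other pair of replicates. The drug effects in that line rest on controls that include them, and without thalidomide replicate 2 the ratio change was 0.05 after BETd-246 and -0.05 after BETi-211.

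Levels also differed between the lines before any BET compound was added. In the control libraries all 13 mitochondrial genes were lower in MDA-MB-157 cells and in MDA-MB-468 than in MDA-MB-231, where 37.2% and 38.4% of all genes were called lower. MT-ND3 averaged 112 ± 16.2 FPKM in MDA-MB-157 cells and 95.6 ± 7.65 in MDA-MB-468 cells, against 996 ± 105 in MDA-MB-231 (SD, n = 4 each). MT-CO1 averaged 510 ± 79.6 FPKM in MDA-MB-157 cells and 498 ± 33.4 in MDA-MB-468 cells, against 868 ± 104 in MDA-MB-231. The means in MDA-MB-231 were 1.70 (MT-CO1) to 8.93 (MT-ND3) times those in MDA-MB-157 and 1.74 (MT-CO1) to 18.3 (MT-ND2) times those in MDA-MB-468. The excess in FPKM was thus far from equal across genes that, MT-ND6 aside, are transcribed together. MT-CO1 and MT-ND2 share 49.5% and 43.6% of their 50-base windows with other genes, so read assignment may affect these folds, which was not tested. MT-ND3 and MT-ND4L share none, and stood 8.93 and 4.54 times over MDA-MB-157. Between MDA-MB-157 cells and MDA-MB-468 cells, 8 of the 13 were called, all higher in MDA-MB-157 cells, where 46.0% of all genes were called higher and 42.1% lower.

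**Figure D4:**
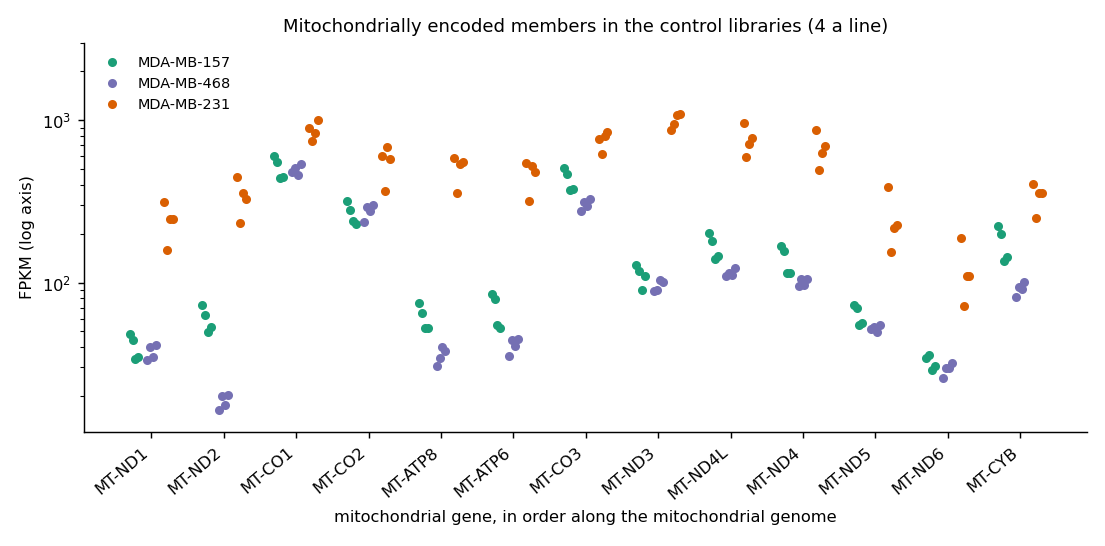
FPKM of the 13 mitochondrial genes in the 4 control libraries of MDA-MB-157 cells, MDA-MB-468 cells and MDA-MB-231 cells, on a log axis. Each point is 1 library. MDA-MB-231 is highest for every gene, by 1.70 times (MT-CO1) to 8.93 times (MT-ND3) over MDA-MB-157.

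The nuclear genes had the reverse order for the most part: 57 of 86 were called higher and 20 lower in MDA-MB-157 than in MDA-MB-231, where 50.1% of all genes were called higher, and 60 and 15 in MDA-MB-468 than in MDA-MB-231, where 47.8% were. NDUFA1, a small membrane subunit needed for complex I assembly, averaged 305 ± 13.1 FPKM in MDA-MB-157 cells and 171 ± 10.3 in MDA-MB-468 cells, against 64.0 ± 5.32 in MDA-MB-231 (SD, n = 4 each). UQCRFS1 was also highest in MDA-MB-157 cells, at 104.5 FPKM, against 40.2 in MDA-MB-468 cells and 22.7 in MDA-MB-231. COX4I1 stood out in MDA-MB-468 cells, at 348 FPKM, against 141 in MDA-MB-157 cells and 144 in MDA-MB-231, as did NDUFS5, a small accessory subunit, at 727 FPKM against 228 and 172. ATP5SL was lowest in MDA-MB-157 cells, at 8.34 FPKM, against 25.2 in MDA-MB-468 cells and 27.9 in MDA-MB-231.

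Genes that serve the complexes from outside were followed as lists, with the lines averaged. Their counts are to be read against all genes, of which 27.9% were called higher and 42.2% lower after BETd-246 and 26.6% and 40.6% after BETi-211. Of 39 genes for transcription, processing and replication of mitochondrial DNA, 34 were measured, and 8 were called higher, near the all-gene share, and 22 lower after BETd-246 (median -0.24) and 4 and 23 after BETi-211 (median -0.21). TRMT10C, a subunit of the enzyme that trims mitochondrial tRNAs at the 5′ end, measured 6.57 and 6.31 FPKM after BETd-246 and 19.9 and 19.1 after BETi-211 in MDA-MB-157, against 24.01 and 23.5 after thalidomide and 26.3 and 27.1 in DMSO. FASTKD5, which acts in processing of mitochondrial messages that no tRNA flanks, measured 3.87 and 3.67 FPKM after BETd-246 and 9.57 and 9.83 after BETi-211 there, against 14.4 and 14.7 after thalidomide and 14.4 and 15.1 in DMSO. Neither gene's treated libraries overlapped with controls. Averaged changes were -1.45 and -0.45 for TRMT10C after BETd-246 and BETi-211, -1.53 and -0.57 for FASTKD5, -1.28 and -0.73 for MTERF1, a termination factor, and -1.10 and -0.65 for FASTKD3. The polymerase POLRMT had changes of -0.04, -0.11 and 0.03 after BETd-246, none called, and fell by 0.39, 0.33 and 0.33 after BETi-211.

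Of 20 regulators of mitochondrial biogenesis 19 were measured, with 1 called higher and 14 lower after BETd-246 (median -0.26) and 2 and 15 after BETi-211. MYC had averaged changes of -2.57 and -0.63, PPRC1, a coactivator of the PGC-1 family, of -1.56 and -1.29, and CREB1 of -0.44 and -0.31. The deacetylase SIRT1 had -1.0 after BETd-246 and 0.79 after BETi-211. A further 48 assembly factors and carriers that the symbol rule leaves out had 29 called higher and 10 lower after BETd-246 (median 0.12). After BETi-211 10 were called higher and 14 lower (median 0.01), each under the all-gene share for that compound. SDHAF1, which helps insert iron-sulfur clusters into SDHB, measured 3.13 and 2.80 FPKM after BETd-246 and 9.10 and 8.91 after BETi-211 in MDA-MB-468, against 12.5 and 12.9 after thalidomide and 11.9 and 11.7 in DMSO. The order of the groups was without overlap.

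Of 24 ribosomal and transfer RNA genes of the mitochondrial DNA 10 were called higher after BETd-246 (median 0.28) and 6, close to the all-gene share, after BETi-211, with none lower. MT-RNR2, the large ribosomal RNA, measured 34320 and 34190 FPKM after BETd-246 and 30170 and 29330 after BETi-211 in MDA-MB-468, against 23040 and 25340 after thalidomide and 25610 and 27790 in DMSO. The libraries were depleted of ribosomal RNA, so these values also reflect what depletion left. Of 17 nuclear copies of mitochondrial DNA 5 were measured, and all 5 were called higher after both compounds, among them MTRNR2L12 at 0.50 and MTATP6P1 at 0.49 after BETd-246. MT-CO1 shares 49.5% of its 50-base windows with another gene, MT-ATP6 46.7% and MT-ND2 43.6%, so reads could be split with such copies in counting, whereas MT-ND3 and MT-ND4L share none. Of the 86 nuclear members, 15 share no window and 33 share at least 10% (median 5.26%, highest 48.2% for NDUFB8), and their levels are uncertain to that extent. Among members described above, NDUFS7 shares 44.6% and NDUFA1 40.7%.

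The citric acid cycle and glycolysis supply the chain with electron carriers. Of 18 citric acid cycle genes 13 were called higher and none lower after BETd-246 (median 0.15), where 27.9% and 42.2% of all genes were, with CS, citrate synthase, at 0.17 and IDH3G at 0.31. After BETi-211 11 were called higher and 3 lower, where 26.6% and 40.6% of all genes were. Of 23 glycolysis genes 17 were called higher and 5 lower after BETd-246 (median 0.17), with GPI and ALDOA at 0.27 each, and 20 were higher and none lower after BETi-211. PFKFB3 and PFKFB4, which set the level of an activator of phosphofructokinase, changed by -0.64 and -0.41 after BETd-246 and by 0.78 and 0.23 after BETi-211.

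**Figure D5:**
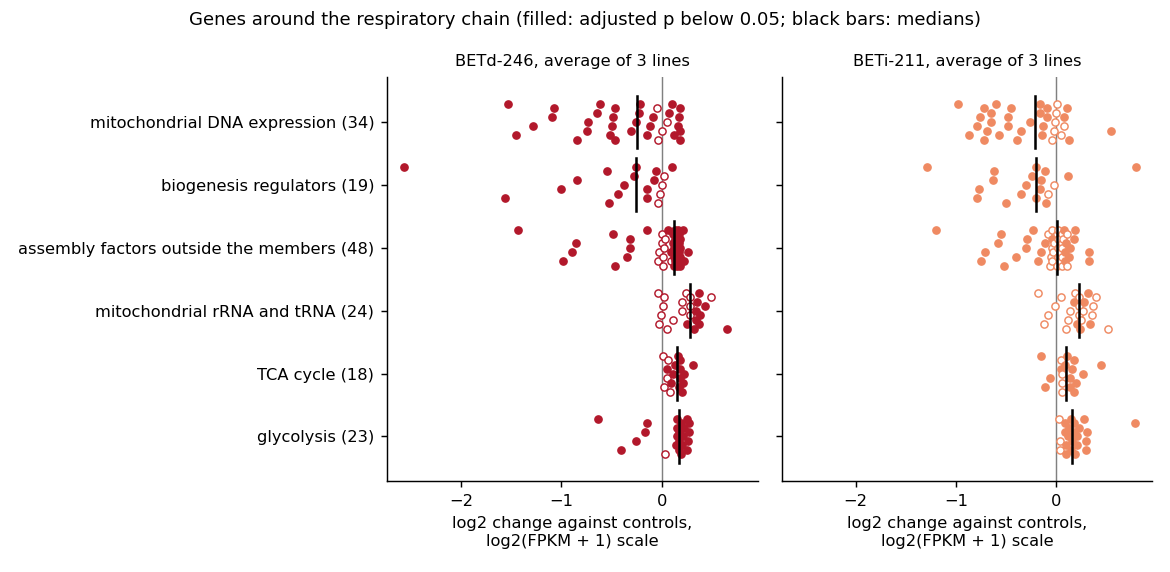
Log2 changes, averaged over the 3 lines, of genes in 6 lists outside the respiratory chain, with BETd-246 left and BETi-211 right. Each point is 1 gene. Genes of mitochondrial DNA expression and of biogenesis lie mostly below zero, with medians of -0.24 and -0.26 after BETd-246, and citric acid cycle and glycolysis genes mostly above.

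Of the antisense RNAs, NDUFA6-AS1 (chromosome 22, 42090931 to 42137742, plus strand) starts head to head with NDUFA6 and overlaps with it by 25 bases. It measured 2.03 and 2.24 FPKM after BETd-246 and 3.98 and 3.32 after BETi-211 in MDA-MB-157, against 2.26 and 2.23 after thalidomide and 2.04 in each DMSO library. In MDA-MB-231 it measured 0.414 and 0.352 FPKM after BETd-246 and 1.06 and 1.21 after BETi-211, against 0.497 and 0.5001 after thalidomide and 0.581 and 0.617 in DMSO. The BETi-211 libraries stood above all others in both lines. It rose by 0.56 (adjusted p 0.00206) and 0.46 (0.00755) after BETi-211, with 0.27 (0.0938) in MDA-MB-468, and had changes of -0.00, -0.16 and -0.03 after BETd-246. NDUFV2-AS1 (chromosome 18, 9121265 to 9136645, minus strand) overlaps NDUFV2 by 13081 bases, and without strand its reads cannot be told apart from those of NDUFV2.

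Promoters were set beside the averaged BETd-246 changes for members that moved differently: NDUFV3 and NDUFAF4, which fell, and COX6B1 and SDHB, which rose. After BETi-211 the grouping differed. With the lines averaged NDUFV3 was then called higher (0.133) and SDHB was not called (0.038), while NDUFAF4 fell (-0.258) and COX6B1 rose (0.155). RefSeq promoters (GRCh38.p14) matched 71 of the 86 nuclear genes. Each stretch below is the 250 bases before the RefSeq start, 5′ to 3′ on the gene's strand, and capitals mark the ETS motif CCGGAAG or its reverse complement, the core bound by GABP. They lie at chr21:42893059-42893308 (plus strand) for NDUFV3, chr6:96897892-96898141 (minus) for NDUFAF4, chr19:35648073-35648322 (plus) for COX6B1 and chr1:17054033-17054282 (minus) for SDHB. GENCODE places the first start further upstream for NDUFV3 (42879644), COX6B1 (35648223) and SDHB (17054170). The ETS matches of COX6B1 and SDHB therefore lie past the first GENCODE start of these genes. The genes were chosen after their values were seen.
NDUFV3: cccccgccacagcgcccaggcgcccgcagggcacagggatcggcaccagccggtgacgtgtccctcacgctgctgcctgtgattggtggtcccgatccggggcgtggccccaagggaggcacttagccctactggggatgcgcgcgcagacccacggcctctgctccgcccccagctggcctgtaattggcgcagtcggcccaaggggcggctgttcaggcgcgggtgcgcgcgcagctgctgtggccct
NDUFAF4: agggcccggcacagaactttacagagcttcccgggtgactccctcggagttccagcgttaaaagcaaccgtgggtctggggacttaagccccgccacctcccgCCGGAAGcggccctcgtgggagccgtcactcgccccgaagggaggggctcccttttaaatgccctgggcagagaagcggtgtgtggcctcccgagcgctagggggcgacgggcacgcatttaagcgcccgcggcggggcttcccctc
COX6B1: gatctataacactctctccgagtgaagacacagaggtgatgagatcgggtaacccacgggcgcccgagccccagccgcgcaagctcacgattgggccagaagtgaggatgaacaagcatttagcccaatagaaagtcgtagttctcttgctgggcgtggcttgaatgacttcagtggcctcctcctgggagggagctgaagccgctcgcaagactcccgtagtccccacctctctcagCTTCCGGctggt
SDHB: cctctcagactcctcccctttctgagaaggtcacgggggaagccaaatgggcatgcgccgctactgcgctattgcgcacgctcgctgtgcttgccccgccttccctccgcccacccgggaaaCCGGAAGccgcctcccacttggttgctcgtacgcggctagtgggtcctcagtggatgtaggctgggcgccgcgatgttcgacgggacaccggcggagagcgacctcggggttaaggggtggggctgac

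The ETS motif stood 147 bases before the RefSeq start of NDUFAF4, which fell after BETd-246. It stood 128 bases before the RefSeq start of SDHB and 12 before that of COX6B1, which rose after BETd-246. These letters are not in the NDUFV3 window. Searched on both strands from 250 bases before to 50 after the start, the ETS motif CCGGAAG was in 20 of 71 member promoters (28.2%), beside 10.3% of 35116 RefSeq promoters and 19.9% of 10307 promoters of genes in the table. The NRF1 letters GCGCATG were in 16 (22.5%, beside 4.43% and 7.62%), and the YY1 letters AAGATGG in 16 (22.5%, beside 5.84% and 7.60%). Longer strings of 10 letters for NRF1 and 11 for YY1, searched first, were in 5 (7.04%, beside 1.24% and 2.32%) and 4 (5.63%, beside 0.849% and 2.07%). TATAAA was in 6 (8.45%, beside 11.5% and 5.57%). Each longer string contains the shorter one of its factor, so its matches are among those of the shorter one, and no other motif here contains another. A match describes the letters only. Of the genes shown, SDHB held the NRF1 letters within the printed stretch, and the NRF1 letters of NDUFAF4 and the YY1 letters of SDHB lie past the start, in the part of the searched window that is not printed.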

How the data were processed

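FPKM values of 24 libraries were analysed. Per the labels' protocols, ribosomal RNA was depleted and libraries were made with a kit that does not record strand. Per the submitters' processing notes, reads passed through bcl2fastq 2.17.1.14 and Bowtie 0.12.8 with GRCh38.p5. The program that made the authors' deposited FPKM is not given in the sources used here, and the unit was inferred from the values. Every row reaches at least 1.22 FPKM as the mean of some group, so low genes are missing.

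A pseudocount of 1 FPKM was added, and limma 3.58.1 (R 4.3.3) was fitted to log2 values with 12 group means, a variance trend and Benjamini-Hochberg adjustment over 14114 genes (12 residual and 3.32 prior degrees of freedom). Folds on this scale understate changes of low genes. Tables were made with Python 3.11.15, pandas 2.3.3 and numpy 2.4.6. The procedure was tested on simulated data. With 2 libraries a group, p-values measure the spread between these cultures.

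The members and gene lists were chosen with earlier results of these data known. Lists are described by counts and medians, with no set test. The rule for named genes took all mitochondrial, SDH and isoform genes, the 5 largest rises and falls of the averaged contrasts, the 3 largest of each line, the 4 largest each way between lines, the lowest interaction p, and the 4 lowest p of each list. UQCRH, UQCRFS1, ATP5B, NDUFS1, NDUFB8, NDUFB10, the antisense RNAs and POLRMT were named after their values were seen. Alternatives covered scaling, pseudocount, level filter, variance trend, control choice, replicate block, single-line fits and leaving out each library. Sequences are from RefSeq GRCh38.p14, positions from GENCODE 29.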

Additional observations from a re-analysis of the deposited data

Results flagged for a closer look

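Among 162 control groups of 4 libraries tested, 8 held a library far from the others, where chance gives about 1 in 20. The number flagged is thus about what chance gives, and the cases below are listed as a description only. DMSO replicate 2 of MDA-MB-157 stood apart for 3 complex I subunits, NDUFS7 (15.04 FPKM), NDUFS8 (67.31) and NDUFV3 (34.01), and was the lowest of the 4 for each. Thalidomide replicate 1 of MDA-MB-231 stood apart for SDHD (77.67), NDUFAF5 (9.123), ATP5H (134.1) and NDUFAF2 (29.74). Thalidomide replicate 2 of MDA-MB-468 did so for NDUFS1 (75.63).

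Drug effects that differed between lines by an interaction term in limma were those on ATP5SL after BETd-246, larger in MDA-MB-468 than in MDA-MB-231 by 0.1638 (adjusted p 0.0245), and 3 after BETi-211 in MDA-MB-157 cells against MDA-MB-468, NDUFB10 at -0.2094 (0.0212), ATP5B at -0.2156 (0.0246) and ATP5SL at -0.1325 (0.049).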

How the results depend on the processing

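The number of genes called moved with scaling, with the choice of control and with single libraries. Counts in this section stand without the share of all genes called under the same setting. With each column scaled to 1 total, nuclear genes called higher and lower after BETd-246 were 18 and 6 in MDA-MB-157 cells, 11 and 4 in MDA-MB-231 cells and 30 and 5 in MDA-MB-468, and after BETi-211 1 and 10, 5 and 7, and 12 and 8; mitochondrial genes called were 3 in MDA-MB-231 cells and 6 in MDA-MB-468 after BETd-246 and 1 and 0 after BETi-211, 36 members were called for BETi-211 averaged over the lines, and 1 for the BETd-246 effect in MDA-MB-157 cells against MDA-MB-231. With mitochondrial genes left out of that total, nuclear genes called lower were 6 in MDA-MB-157 cells and 5 in MDA-MB-468 after BETd-246 and 6 in MDA-MB-231 cells and 8 in MDA-MB-468 after BETi-211, mitochondrial genes 3 and 5 in MDA-MB-231 cells and MDA-MB-468 after BETd-246 and 1 and 0 after BETi-211, the direct comparison called 15 in each of these lines, and effects differed for 2 (BETd-246) and 1 (BETi-211) in MDA-MB-157 cells and 4 (BETd-246) in MDA-MB-468 cells, each against MDA-MB-231. Upper-quartile scaling gave 1 nuclear gene lower after BETd-246 in MDA-MB-231, nuclear genes higher after BETi-211 of 40, 57 and 65 with 2 lower in MDA-MB-157 cells and 0 in MDA-MB-468 cells, 39 in the direct comparison in MDA-MB-157 cells, 1 interaction call for each compound in MDA-MB-157 cells and for BETi-211 in MDA-MB-468 cells, each against MDA-MB-231 cells, and 5 for BETi-211 in MDA-MB-157 cells against MDA-MB-468. Median-of-ratios scaling gave nuclear genes lower after BETd-246 of 1 in MDA-MB-157 cells and 0 in MDA-MB-231, 11 mitochondrial genes there, nuclear genes higher after BETi-211 of 18, 55 and 61 with 3 lower in MDA-MB-157 cells and 0 in MDA-MB-468 cells, 4 mitochondrial genes in MDA-MB-468, 65, 54 and 40 in the direct comparisons, and interaction calls of 1 for each compound in MDA-MB-157 cells against MDA-MB-231 cells, 0 for BETd-246 in MDA-MB-468 cells against MDA-MB-231 cells and 1 in MDA-MB-157 cells against MDA-MB-468. Quantile normalization gave 37 nuclear genes higher after BETd-246 in MDA-MB-157, 1 lower in each other line, mitochondrial genes of 4, 1 and 5 after BETd-246 and 1 and 0 in MDA-MB-231 cells and MDA-MB-468 after BETi-211, 10 nuclear genes higher and 3 lower after BETi-211 in MDA-MB-157 cells and 0 lower in MDA-MB-231 cells, 13 and 15 in the direct comparisons of MDA-MB-231 cells and MDA-MB-468, and interaction calls for BETd-246 and BETi-211 of 5 and 7 (MDA-MB-157 cells against MDA-MB-231), 2 and 2 (MDA-MB-468 cells against MDA-MB-231) and 2 and 5 (MDA-MB-157 cells against MDA-MB-468).

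With DMSO alone as control, nuclear genes higher after BETd-246 were 30 in MDA-MB-157 cells and 16 in MDA-MB-231 cells, mitochondrial genes 1 in MDA-MB-231 cells and 6 in MDA-MB-468 cells, nuclear genes higher after BETi-211 2 in MDA-MB-157 cells and 6 in MDA-MB-231 with 2 lower in MDA-MB-468 cells, mitochondrial genes 0 in both MDA-MB-231 cells and MDA-MB-468 cells, and 1 interaction call each for BETi-211 in MDA-MB-157 cells and MDA-MB-468 cells against MDA-MB-231. With thalidomide alone, 1 mitochondrial gene was called after BETd-246 and 0 after BETi-211 in MDA-MB-157 cells and 4 after BETi-211 in MDA-MB-231, nuclear genes after BETi-211 were 2 higher and 3 lower in MDA-MB-157 cells and 15 higher and 0 lower in MDA-MB-468 cells, and 0 interaction calls remained for BETd-246 in MDA-MB-468 cells against MDA-MB-231 cells and for BETi-211 in MDA-MB-157 cells against MDA-MB-468. Fitting each line alone gave 10 nuclear genes higher, 1 lower and 2 mitochondrial genes after BETd-246 in MDA-MB-231, 7 nuclear and 0 mitochondrial genes higher there after BETi-211, 2 nuclear genes lower and 9 mitochondrial genes higher after BETi-211 in MDA-MB-468 cells, and 56 and 2 calls in the direct comparisons of MDA-MB-157 cells and MDA-MB-231. Requiring a group mean of at least 5 FPKM gave 2 nuclear genes lower after BETi-211 in MDA-MB-468 cells and 1 interaction call for BETd-246 in MDA-MB-157 cells against MDA-MB-231. Same-numbered libraries deviated together with r of -0.207 to 0.335, so the numbers did not pair the samples, and a replicate block gave 1 such interaction call and lost 4 of 169 calls of named genes.

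Of the 169 calls of named genes, 80 were lost with column totals, 61 with quantile normalization, 63 with DMSO alone and 52 with thalidomide alone, and 2 with a pseudocount of 0.1. Directions turned for 8: UQCRB in MDA-MB-157 cells and NDUFAF7 in MDA-MB-231 with quantile normalization (-0.037 and 0.0856), NDUFV3 in MDA-MB-231 with median-of-ratios (0.0249), NDUFAF5 in MDA-MB-231 (0.0017 and 0.0593) and NDUFAF7 in MDA-MB-468 (0.0412 and 0.0521) with median-of-ratios and quantile normalization, and NDUFS1 in MDA-MB-468 with column totals (-0.0013), all after BETd-246. The causes were not tested. Changes of the mitochondrial to nuclear ratio moved by less than the control SD in all alternatives run. The limit cannot show that they held, since several were smaller than that SD. These were 0.241 (BETd-246, MDA-MB-157, SD 0.277), 0.206 and 0.106 (BETd-246 and BETi-211, MDA-MB-231, SD 0.348) and 0.124 (BETi-211, MDA-MB-468, SD 0.144). Larger than it were 0.254 (BETd-246, MDA-MB-468) and 0.441 (BETi-211, MDA-MB-157). The 0.106 became -0.05 without thalidomide replicate 2. For MDA-MB-157 the SD also spans a thalidomide to DMSO difference of 0.47.

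Leaving out 1 library, which leaves a group with 1 sample assumed to vary like the others, gave these ranges in MDA-MB-157 cells, MDA-MB-231 cells and MDA-MB-468. Ratio changes were 0.04 to 0.45, 0.05 to 0.33 and 0.20 to 0.31 after BETd-246 and 0.29 to 0.59, -0.05 to 0.23 and 0.06 to 0.19 after BETi-211. After BETd-246 nuclear genes higher were 11 to 46, 11 to 73 and 24 to 60, lower 3 to 4, 1 to 4 and 2 to 4, and mitochondrial genes 1 to 9, 2 to 13 and 3 to 11. After BETi-211 they were 1 to 6, 3 to 57 and 11 to 33, lower 4 to 6, 2 to 6 and 0 to 2, and mitochondrial 0 to 8, 0 to 12 and 0 to 2. Direct comparisons ranged over 6 to 11, 3 to 9 and 3 to 6, and thalidomide against DMSO over 0 to 4, 0 to 49 and 0. Averaged over the lines, 88 to 93 were called after BETd-246 and 46 to 84 after BETi-211. The control levels gave 87 to 94 (MDA-MB-157 cells against MDA-MB-231), 87 to 94 (MDA-MB-468 cells against MDA-MB-231) and 80 to 83. Effects of BETd-246 and BETi-211 differed for 0 to 6 and 0 to 45, 0 to 10 and 0 to 6, and 0 to 1 and 0 to 4 in the same order.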
